A study of Mus musculus with 48 samples.

Results

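The adipocyte genes *Adipoq*, *Plin1*, *Cidec*, *Cfd*, *Lep*, *Fabp4*, *Retn*, and *Pparg*, 8 in all, were followed in tibialis anterior muscle, a fast muscle of the lower leg. They were chosen by gene symbol, and each of the 8 names matched 1 of the 56748 genes in the deposited table of FPKM values (fragments scaled by gene length and by library depth). The libraries, 48 in all, came from male mice aged 39 to 55 weeks, with 2 mice in each of 24 groups. Mice had either KPC murine pancreatic cancer cells placed in the pancreas in 50 µl of saline (KPC) or the same volume of saline alone (control). They were held in constant darkness for 18 h, and muscle was taken every 4 h from circadian time 18 (CT18) to CT38. FoxP1SkmKO mice carried floxed *Foxp1* alleles and a Cre recombinase driven by the *ACTA1* promoter, which is active in muscle fibers, so the deletion was not directed at fat cells. The comparison mice are called WT here. Labels and methods call their strain C57BL/6J, but the series record speaks of Cre-negative floxed animals, so which of these they were could not be settled.

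White adipocytes store triglyceride in 1 large droplet and release hormones into the blood. In skeletal muscle they lie in small islands between fibers and along vessels, and they also surround the muscle. *Adipoq* (adiponectin), *Lep* (leptin), and *Retn* (resistin) encode secreted hormones, and *Cfd* encodes adipsin, or complement factor D, a secreted protease. *Plin1* encodes perilipin 1, which coats the lipid droplet and restrains lipolysis, and *Cidec* encodes a droplet protein that helps droplets fuse. *Fabp4* encodes a fatty acid chaperone that is abundant in adipocytes and is also made by capillary endothelial cells and macrophages. *Pparg* encodes the nuclear receptor PPARγ, the master regulator of adipocyte differentiation, which cells other than adipocytes also express. In cancer cachexia fat depots shrink as lipolysis increases.

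All 8 genes had counts in these muscles, in the mm39 build used by the deposited tables. *Adipoq* lies at chr16:22965286-22976778 on the plus strand, *Plin1* at chr7:79369966-79382651 on the minus strand, *Cidec* at chr6:113401595-113412721 on the minus strand, and *Cfd* at chr10:79726687-79728489 on the plus strand. *Lep* lies at chr6:29060219-29073876 on the plus strand, *Fabp4* at chr3:10269148-10273636 on the minus strand, *Retn* at chr8:3705770-3710110 on the plus strand, and *Pparg* at chr6:115337912-115467360 on the plus strand. *Pparg* overlaps the minus-strand gene Gm44079, which was listed at 0. Whether the libraries kept strand is not given in the sources used here, so reads of this pair could not be assigned by strand.

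Over the 48 libraries *Adipoq*, *Plin1*, *Cidec*, *Cfd*, *Lep*, and *Retn* rose and fell together, while *Pparg* did not follow them. The 250 bases before their transcription starts are therefore shown. The sequences come from RefSeq (table build GRCm38.p6), were placed in GRCm39 by an exact match that was unique for each, and read 5′ to 3′ on the strand of the gene. Capitals mark every match to a searched motif. The table holds 2 starts for *Cidec*, both shown, and 3 for *Pparg*, of which the most downstream is shown. The windows are *Adipoq* chr16:22965036-22965285, *Plin1* chr7:79382525-79382774, *Cidec* chr6:113411726-113411975 and chr6:113412722-113412971, *Cfd* chr10:79726437-79726686, *Lep* chr6:29059970-29060219, *Retn* chr8:3705520-3705769, and *Pparg* chr6:115398777-115399026.
Adipoq: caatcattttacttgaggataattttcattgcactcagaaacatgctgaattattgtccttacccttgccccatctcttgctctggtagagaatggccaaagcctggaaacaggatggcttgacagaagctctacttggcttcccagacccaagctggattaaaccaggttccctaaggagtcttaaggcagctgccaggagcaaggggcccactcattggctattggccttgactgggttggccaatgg
Plin1: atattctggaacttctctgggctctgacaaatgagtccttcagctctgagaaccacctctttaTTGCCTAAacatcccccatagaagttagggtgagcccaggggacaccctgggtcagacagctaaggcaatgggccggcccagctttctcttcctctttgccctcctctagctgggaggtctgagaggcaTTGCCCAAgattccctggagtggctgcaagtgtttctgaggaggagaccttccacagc
Cidec, downstream start: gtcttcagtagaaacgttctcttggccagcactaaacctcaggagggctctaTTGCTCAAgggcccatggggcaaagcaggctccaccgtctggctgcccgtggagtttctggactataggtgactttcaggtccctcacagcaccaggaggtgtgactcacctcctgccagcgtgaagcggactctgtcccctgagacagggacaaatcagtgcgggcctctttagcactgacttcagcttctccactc
Cidec, upstream start: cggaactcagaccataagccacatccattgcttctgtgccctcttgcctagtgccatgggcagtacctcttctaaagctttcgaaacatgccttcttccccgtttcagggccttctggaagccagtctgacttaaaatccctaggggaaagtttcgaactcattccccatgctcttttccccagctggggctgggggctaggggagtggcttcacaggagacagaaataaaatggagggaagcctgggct
Cfd: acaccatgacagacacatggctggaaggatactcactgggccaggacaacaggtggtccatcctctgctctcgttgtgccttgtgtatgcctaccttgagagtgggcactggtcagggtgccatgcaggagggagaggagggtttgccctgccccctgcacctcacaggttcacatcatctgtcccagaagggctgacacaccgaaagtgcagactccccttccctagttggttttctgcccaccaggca
Lep: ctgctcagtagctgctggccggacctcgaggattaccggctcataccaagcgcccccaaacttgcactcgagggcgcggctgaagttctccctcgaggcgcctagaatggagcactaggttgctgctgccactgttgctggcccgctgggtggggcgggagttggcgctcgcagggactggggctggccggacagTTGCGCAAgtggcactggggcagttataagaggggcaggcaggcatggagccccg
Retn: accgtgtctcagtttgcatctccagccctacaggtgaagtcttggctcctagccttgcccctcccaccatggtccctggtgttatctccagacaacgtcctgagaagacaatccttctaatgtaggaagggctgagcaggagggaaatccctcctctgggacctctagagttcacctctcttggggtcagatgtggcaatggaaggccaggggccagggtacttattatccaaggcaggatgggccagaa
Pparg: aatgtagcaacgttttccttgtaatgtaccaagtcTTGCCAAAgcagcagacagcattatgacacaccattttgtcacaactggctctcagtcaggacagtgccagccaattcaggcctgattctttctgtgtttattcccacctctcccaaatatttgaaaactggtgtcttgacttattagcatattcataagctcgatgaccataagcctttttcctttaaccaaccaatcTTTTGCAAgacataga

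Motifs were searched on both strands of 300-base windows, 250 before to 50 after a start, for the 10 starts that the table holds for 7 of the 8 members. *Fabp4* had no entry. The letters TTGCNNAA, a loose form of the site bound by C/EBP factors, were in 4 of the 10 windows and in 10.8% of all 32851 windows. They began 187 and 58 bases before the start of *Plin1*, 198 before the downstream start of *Cidec*, 55 before that of *Lep*, and 215 and 16 before the *Pparg* start shown. The windows of *Adipoq*, *Cfd*, *Retn*, and the upstream start of *Cidec* held none of the searched letters. AGGTCA, the core letters of many nuclear receptor sites, was in 2 of the 10, both *Pparg* windows, and in 16.3% of all windows. TATAAA was in 1 of the 10 and in 13.6% of all windows, and it was again a *Pparg* window. CACGTG, the E-box used by clock factors, was in 0 of the 10 and 7.15% of all, and TGTTTAC, a forkhead site, was in 0 of the 10 and 3.65% of all. A pair of AGGTCA copies 1 base apart was in 0 of the 10 and 0.0396% of all. The motifs do not overlap each other in these windows, and a match is a match of letters only.

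Libraries held 14480446 to 20787135 counts on genes, with a median of 16601271, and the 8 members together took 1043 to 2742 of them, with a median of 1883. Most of these were *Fabp4*, with a median of 1626 counts. *Cfd* had a median of 93.5 counts, *Pparg* 42.5, *Plin1* 32, *Adipoq* 23, *Cidec* 20.5, *Retn* 9, and *Lep* 8. Reads without molecular identifiers are not independent molecules, so precision at such counts is lower than the counts alone would give. All 8 passed the filter on low counts. Liver transcripts stood apart in 2 libraries, replicate 2 of FoxP1SkmKO KPC mice at CT18 (*Alb* at 102 FPKM) and replicate 1 of FoxP1SkmKO controls at CT22 (27.7), against at most 4.56 FPKM in the others.

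*Adipoq*, the hormone that is most often used to mark mature adipocytes, had a median level of 0.93 FPKM over the 48 libraries, with a lowest value of 0.049 and a highest of 3.85. *Cfd* was the most abundant of the secreted proteins, at 0.37, 5.67, and 22.5 FPKM for the lowest, median, and highest library. *Retn* had a median of 0.32 FPKM and a highest value of 1.10, with 3 libraries at 0. *Lep* had a median of 0.15 FPKM and a highest value of 0.65, with 5 libraries at 0, where a count of 0 allows up to 3 counts.

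Of the droplet proteins, *Plin1* ran from 0.048 to 1.63 FPKM with a median of 0.40, and *Cidec* from 0 to 3.17 with a median of 0.64 and 1 library at 0. *Pparg* stayed between 0.48 and 1.39 FPKM, with a median of 0.81. *Fabp4* stayed between 14.5 and 31.2 FPKM with a median of 21.5. The table divides *Fabp4* by 4489 bases, its whole span from start to end, whereas the other members are divided by less than their span, so its level per length of mRNA is understated against theirs.

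In order of median level the genes stood *Fabp4*, *Cfd*, *Adipoq*, *Pparg*, *Cidec*, *Plin1*, *Retn*, and *Lep*. *Fabp4* was above *Cfd* in 47 of 48 libraries, *Cfd* above *Adipoq* in 48, and *Cidec* above *Plin1* in 42. Neighbors further down were less separate. *Adipoq* was above *Pparg* in 28 of 48 libraries, *Pparg* above *Cidec* in 29, *Plin1* above *Retn* in 34, and *Retn* above *Lep* in 37.

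Muscle fiber transcripts were abundant in every library. The summed level of 7 muscle fiber markers was 41952 to 58027 FPKM, against 21.0 to 53.0 FPKM for the 8 members. In such bulk samples, fewer adipocytes and less RNA per adipocyte cannot be told apart. *Ucp1*, the defining gene of brown fat, was listed at 0 in every library, and 5 of 10 further adipocyte surface genes (*Adrb3*, *Tshr*, *Acvr1c*, *Slc7a10*, and *Ffar2*) had medians under 0.1 FPKM. *Krt14*, of skin, was also at 0 throughout. Neither gene stands for its whole list. The 5 brown and beige fat genes summed to 0.80 to 2.04 FPKM over the libraries, and the 3 skin genes to 0.24 to 0.95 FPKM. The 10 adipocyte surface genes summed to 5.46 to 11.1 FPKM, and 5 of them passed the filter on low counts. Among these was *Aqp7*, whose means at single times ran from 3.19 to 7.74 FPKM.

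**Figure D1:**
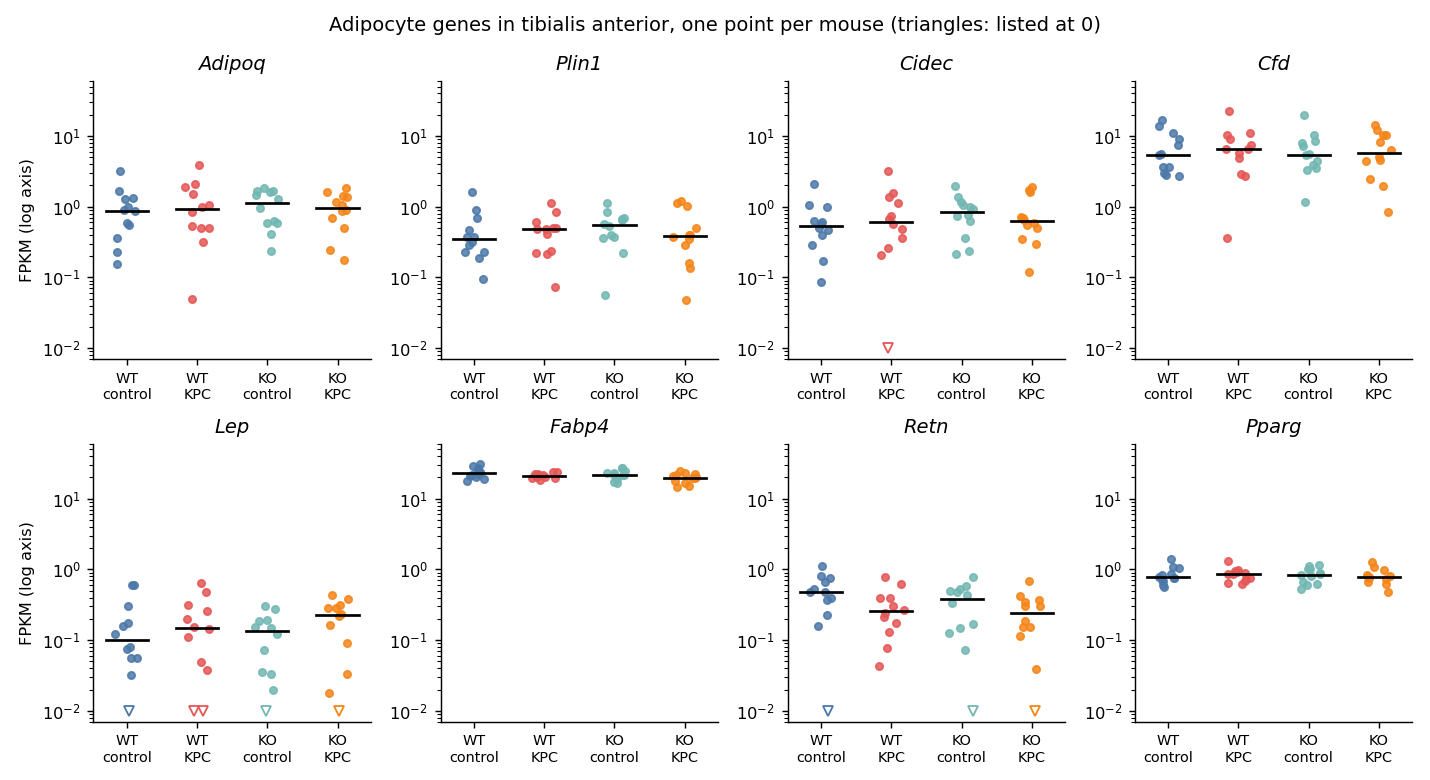
Level of each of the 8 genes in FPKM (log axis) for every mouse, in WT control, WT KPC, FoxP1SkmKO (KO) control, and KO KPC muscle, 12 mice in each; horizontal bars are medians and triangles are libraries listed at 0. *Fabp4* and *Pparg* form tight clusters, while the other 6 genes spread widely within every group and the groups overlap for all 8.

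Mice of the same group differed widely in 6 of the 8 genes. In WT control muscle at CT18, *Adipoq* was 0.23 FPKM in one mouse and 3.21 in the other, a 14.0-fold difference that was the highest for this gene. The median difference between the 2 mice of a group was 2.52-fold for *Adipoq*, and it was over 2-fold in 13 of 24 groups. *Cfd* had a median of 2.00-fold and a highest value of 14.2-fold, *Cidec* 2.31-fold and 13.5-fold, and *Plin1* 2.04-fold and 23.5-fold, each of these 3 highest values from FoxP1SkmKO KPC mice at CT22. *Retn* (median 2.52-fold over 21 groups with both mice above 0) and *Lep* (2.99-fold over 20 such groups) were as variable.

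*Fabp4* and *Pparg* were not. The 2 mice of a group differed by a median of 1.09-fold in *Fabp4* and by at most 1.41-fold, and by a median of 1.23-fold in *Pparg* with 1 of 24 groups over 2-fold. As a coefficient of biological variation within groups, estimated by edgeR, *Fabp4* had 9.11% and *Pparg* 16.2%, close to the median of 11.5% over the 15637 genes tested. *Adipoq* had 60.7%, *Cfd* 61.0%, *Cidec* 63.7%, *Plin1* 64.3%, *Retn* 72.3%, and *Lep* 86.5%. These 6 stood at the 98.8 to 99.4 percentile of genes tested, *Pparg* at the 64.7 and *Fabp4* at the 37.3 percentile.

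**Figure D2:**
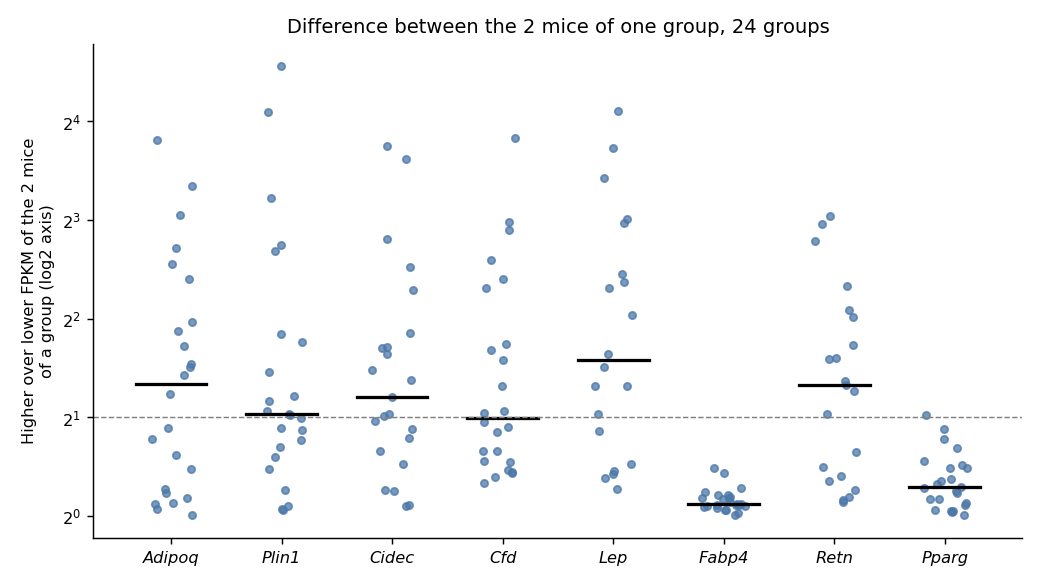
Higher over lower FPKM of the 2 mice of a group (log2 axis), 1 point for each of up to 24 groups per gene, with a dashed line at 2-fold. Groups with a mouse at 0 are left out (1 for *Cidec*, 3 for *Retn*, and 4 for *Lep*). No *Fabp4* point is above the line, whereas 12 to 14 groups are above it for each of *Adipoq*, *Plin1*, *Cidec*, *Cfd*, *Lep*, and *Retn*.

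The 6 variable genes rose and fell together. Over the 48 libraries, on log2 counts scaled to library totals (CPM), *Adipoq* correlated with *Cidec* at Pearson's r = 0.88 (Spearman's rho = 0.84), with *Cfd* at 0.86 (0.82), with *Plin1* at 0.83 (0.80), with *Lep* at 0.68 (0.72), and with *Retn* at 0.62 (0.63). Permutation p was 1e-05 for each r except that with *Retn* (2e-05) and 1e-05 for each rho. The smallest p that 100000 permutations can give is 1e-05, and after adjustment over 15 relations the largest of these 10 was 6e-05. Without the 2 libraries farthest from the median *Adipoq* level, r was 0.83, 0.83, 0.81, 0.64, and 0.67 in the same order.

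The relation held within groups, where neither treatment, genotype, nor time differed. The difference in *Adipoq* between the 2 mice of a group, over 24 groups, correlated with that in *Cidec* at r = 0.89, in *Plin1* at 0.88, in *Cfd* at 0.86, in *Retn* at 0.80, and in *Lep* at 0.70 (permutation p = 0.00014 for *Lep*, 2e-05 for *Retn*, and 1e-05 for the others). Among the 15 pairs of these 6 genes, r over libraries was 0.45 to 0.88, with a median of 0.71. The genes of a library share its depth and its piece of muscle, and the split into 6 variable and 2 stable genes was made after their values were seen.

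*Fabp4* and *Pparg* did not follow them over the 48 libraries. With *Adipoq*, *Fabp4* had r = -0.05 (permutation p = 0.757) and rho = 0.01 (permutation p = 0.926) over 48 libraries, and *Pparg* had r = 0.10 (permutation p = 0.483) and rho = 0.12 (permutation p = 0.401). Between the 2 mice of a group, *Pparg* had r = 0.34 with *Adipoq* (permutation p = 0.11) and rho = 0.30 (permutation p = 0.156). *Fabp4* had r = -0.09 (permutation p = 0.666) and rho = -0.16 (permutation p = 0.463) there. With the 6 variable genes, *Fabp4* ran from r = -0.21 to 0.11 and *Pparg* from -0.05 to 0.10. As endothelial cells also make *Fabp4*, the members were set against the summed level of 6 endothelial markers (*Pecam1*, *Cdh5*, *Kdr*, *Tek*, *Emcn*, and *Vwf*). Between the 2 mice of a group, *Pparg* had r = 0.48 with these markers (permutation p = 0.0178, adjusted 0.0445) and rho = 0.50 (permutation p = 0.0136), and *Fabp4* had r = 0.45 (permutation p = 0.0278, adjusted 0.0596) and rho = 0.29 (permutation p = 0.167). Over all 48 libraries, *Pparg* had r = 0.32 (permutation p = 0.0247, adjusted 0.0617) and rho = 0.24 (permutation p = 0.0962), and r was 0.30 without the 2 libraries farthest from the median marker level. *Fabp4* had r = 0.24 (permutation p = 0.106, adjusted 0.227) and rho = 0.19 (permutation p = 0.203), and r was 0.18 without those 2. For the other 6 genes r with the endothelial markers was between -0.10 and 0.08 over libraries.

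**Figure D3:**
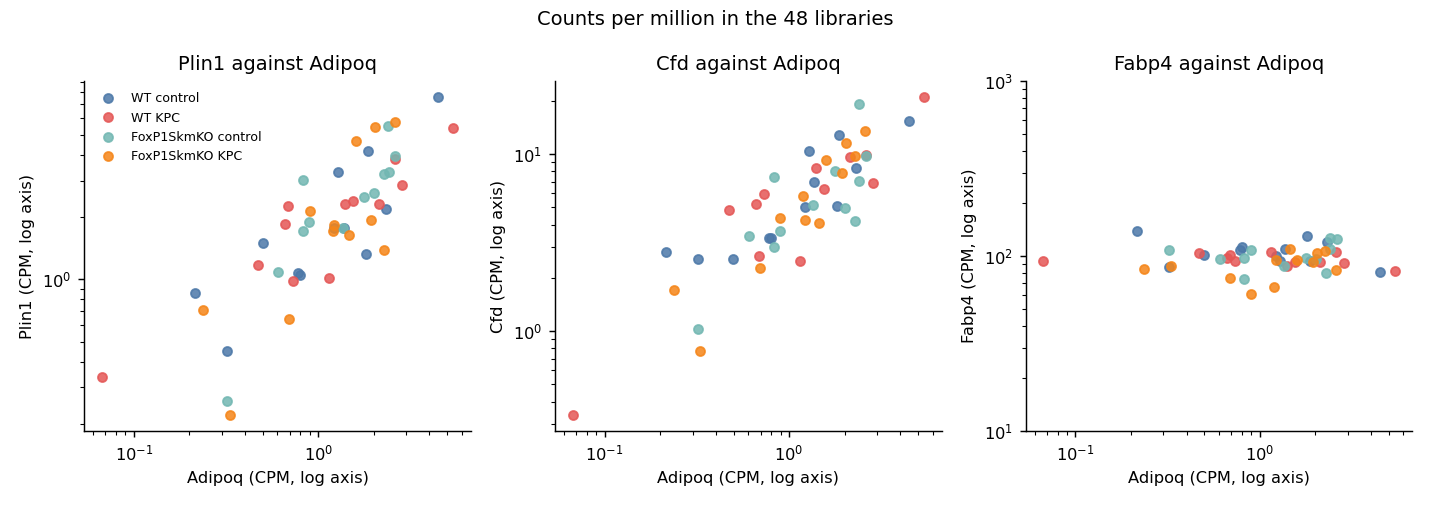
CPM of *Plin1*, *Cfd*, and *Fabp4* against *Adipoq* in the 48 libraries (log axes), colored by genotype and condition. *Plin1* and *Cfd* climb with *Adipoq* (r = 0.83 and 0.86 on the log2 scale), whereas *Fabp4* stays in a flat band (r = -0.05), and the 4 colors are mixed along each axis.

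The libraries at either end were alike across genes. Replicate 2 of WT KPC mice at CT18 was the highest of 48 for *Adipoq*, *Cidec*, *Cfd*, and *Lep* and the third for *Plin1* and *Retn*, yet it ranked 41 for *Fabp4* and 13 for *Pparg*. Replicate 1 of WT KPC mice at CT26 was the lowest for *Adipoq* (0.049 FPKM, 1 count), *Cidec* (0), and *Cfd* (0.37 FPKM), and ranked 28 for *Fabp4*. Both ends of the range were held by WT mice with KPC tumors for *Adipoq*, *Cidec*, and *Cfd*. The highest *Plin1* (1.63 FPKM) and *Retn* (1.10 FPKM) were in replicate 2 of WT controls at CT18, and the lowest *Plin1* (0.048 FPKM) was in replicate 2 of FoxP1SkmKO KPC mice at CT22.

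The 10 genes whose levels were most like those of *Adipoq*, *Plin1*, and *Cidec*, by the mean of their 3 values of r over the 48 libraries, were *Ifi27l2a* (0.76), *Scd1* (0.74), *Prkar2b* (0.73), *Lgals12* (0.72), *Nnat* (0.72), *Cdo1* (0.69), *Ptger3* (0.68), *A530016L24Rik* (0.68), *Tmem45b* (0.68), and *Pck1* (0.65). *Scd1* encodes a desaturase of fatty acid synthesis, *Prkar2b* a regulatory subunit of protein kinase A, *Lgals12* a galectin of lipid droplets, and *Pck1* the enzyme that makes glycerol backbones in fat. Among all 15637 genes ranked this way *Cfd* was 4, *Lep* 10, and *Retn* 19, whereas *Pparg* was 5934 and *Fabp4* 11096. *Scd1* had a median of 7.56 FPKM and ran from 1.43 to 26.2. None of the 10 differed between KPC and control mice in either genotype.

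The comparison of KPC with control mice asks whether a tumor changes adipocyte transcripts in the muscle. With the 6 circadian times averaged, no difference was detectable for any of the 8 genes by the adjusted test. In WT mice, *Adipoq* was 0.16, 0.88, and 3.21 FPKM (lowest, median, and highest of 12) in controls and 0.049, 0.92, and 3.85 with KPC. The groups overlapped over nearly their whole range, and the log2 fold change was -0.05 (SE 0.38, adjusted p = 0.976, edgeR's quasi-likelihood test, adjusted by the Benjamini-Hochberg method). In FoxP1SkmKO mice the 3 values were 0.24, 1.12, and 1.86 FPKM in controls and 0.18, 0.97, and 1.82 with KPC, a log2 fold change of -0.11 (SE 0.38, adjusted p = 0.947 by the same test). Both signs turned with small changes in the libraries or times used, so neither is a direction.

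Intervals show how precise these estimates were. The 95% interval of the fold change in *Adipoq* was 0.57 to 1.64 in WT mice and 0.54 to 1.58 in FoxP1SkmKO mice. For *Adipoq*, *Plin1*, *Cidec*, and *Cfd* together, the intervals reached from 0.54 to 2.02-fold in WT and from 0.54 to 1.77-fold in FoxP1SkmKO mice. Differences inside these bounds were not detectable with 12 mice a group. The width went with the variation between mice more than with counts, since *Cfd*, with 93.5 counts at the median, had an interval of 0.55 to 1.56-fold in WT mice, whereas *Pparg*, with 42.5, had one of 0.86 to 1.23-fold. For *Lep*, with few counts, the intervals were 0.20 to 1.78-fold and 0.76 to 3.64-fold. *Lep* was listed at 0 in both WT KPC mice at CT26, a time that enters the WT interval.

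*Retn* had the lowest fold change of these genes in WT mice. It was 0, 0.48, and 1.10 FPKM in controls and 0.043, 0.26, and 0.78 with KPC, a log2 fold change of -0.85 (SE 0.47, adjusted p = 0.399, edgeR's quasi-likelihood test), and the groups overlapped. Without replicate 1 of the WT controls at CT34 it was 0.18, the opposite direction. That group then rests on replicate 2 alone, which was listed at 0 for *Retn*. In FoxP1SkmKO mice *Retn* was 0, 0.38, and 0.78 FPKM in controls and 0, 0.24, and 0.69 with KPC, a log2 fold change of -0.31 (SE 0.51, adjusted p = 0.868 by the same test).

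*Fabp4* had the lowest p of the members in both genotypes, with a small difference. In WT mice it was 18.1, 23.3, and 31.2 FPKM in controls and 18.2, 21.0, and 23.9 with KPC, a fold of 0.91 (95% interval 0.84 to 0.98, log2 -0.14, SE 0.05). In FoxP1SkmKO mice it was 16.6, 21.6, and 27.5 FPKM in controls and 14.5, 19.8, and 24.3 with KPC, a fold of 0.90 (0.83 to 0.97, log2 -0.16, SE 0.05). The unadjusted p was 0.0126 and 0.00591 and the adjusted p 0.175 in both (edgeR's quasi-likelihood test, adjusted by the Benjamini-Hochberg method), so neither passed. An exact permutation test within each time, on *Fabp4* alone, gave p = 0.0366 and 0.0257, two-sided and not adjusted over genes. The difference between the genotypes' KPC effects was 0.02 on the log2 scale (SE 0.08, adjusted p = 0.988 by the same edgeR test). With CT26 left out the WT effect was -0.07 (adjusted p = 0.68), and with no filter on low counts both effects passed, at -0.14 and -0.16 with adjusted p = 0.033 and 0.02.

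These counts can be read against all genes. With averaged times, 0 of 8 members passed the adjusted threshold of 0.05 in WT mice, where 1.78% of the 15637 genes tested did, and 1 of 8 had an unadjusted p under 0.05, where 15.2% did. In FoxP1SkmKO mice it was 0 of 8 against 0.422% of genes, and 1 of 8 unadjusted against 12.4%. For the difference of the KPC effect between genotypes it was 0 of 8 against 0% (0 genes), and 0 of 8 unadjusted against 6.52%. The median log2 fold change of the 8 members was -0.0808 in WT and -0.0745 in FoxP1SkmKO mice, and that of all genes tested was 0.0017 and 0.0048. The p-values measure only the spread between these mice.

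**Figure D4:**
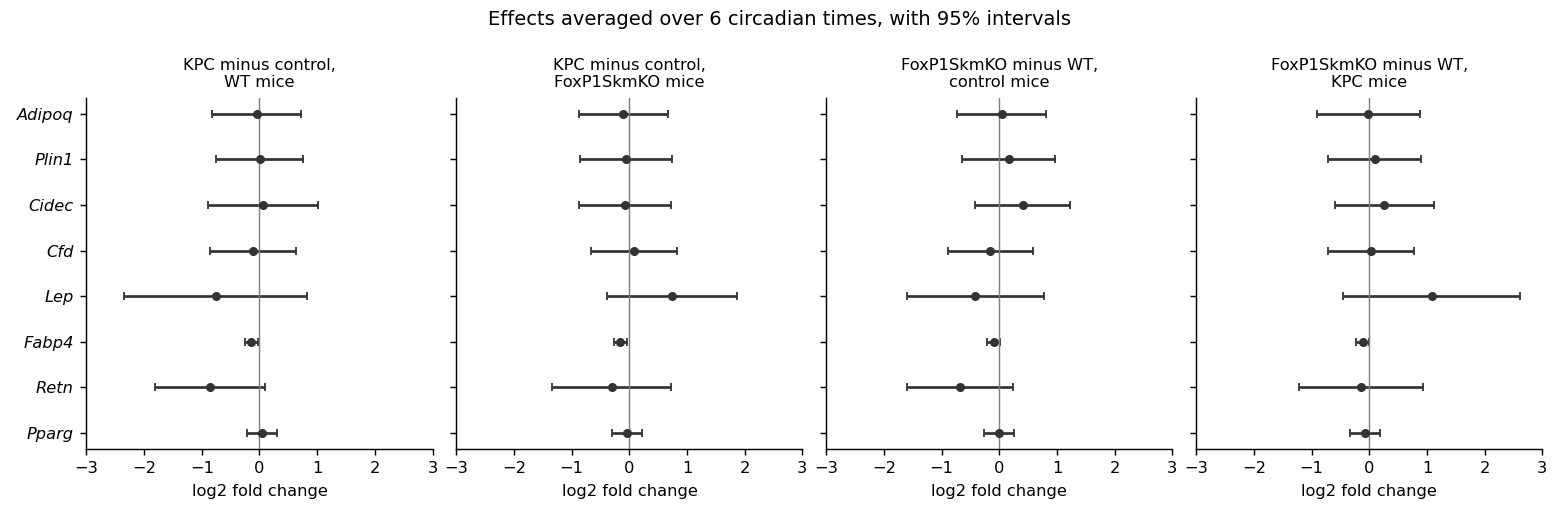
Log2 fold changes of the 8 genes with 95% intervals, averaged over 6 circadian times, for KPC against control in WT and in FoxP1SkmKO mice and for FoxP1SkmKO against WT in control and in KPC mice. The intervals of *Fabp4* and *Pparg* are narrow and those of the other 6 are wide, and the intervals that leave out 0 are those of *Fabp4* for KPC in both genotypes and for genotype in KPC mice.

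As the 6 variable genes moved together, each member was also set against *Adipoq* within its library, so that a change common to all of them cancels. None of the 14 ratios (7 genes in 2 genotypes) differed between KPC and control mice. The lowest p was 0.127, for *Retn* to *Adipoq* in WT mice (exact permutation test within times, 46656 arrangements, two-sided, adjusted p = 0.992). That log2 ratio of counts was -0.84 ± 1.30 in controls and -1.47 ± 0.80 with KPC (SD, n = 12 each). For *Fabp4* and *Pparg*, which did not follow *Adipoq* over the libraries, the ratio takes on the spread of *Adipoq*. In WT mice the *Fabp4* ratio had an SD of 1.28 in controls and 1.53 with KPC. It could not show a change as small as the -0.14 of *Fabp4* itself.

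Between the genotypes, no member passed the test either. *Adipoq* was 0.88 FPKM at the median in WT and 1.12 in FoxP1SkmKO controls (log2 fold change 0.04, SE 0.38, adjusted p = 0.98, edgeR's quasi-likelihood test). *Fabp4* in FoxP1SkmKO mice stood at a fold of 0.93 against WT in controls and 0.92 in KPC mice (adjusted p = 0.324 and 0.414 by the same test). Of the 8 members, 0 passed among control mice, where 3.45% of genes did, and 0 among KPC mice, where 0.352% did. Unadjusted, 0 of 8 had a p under 0.05 in control mice against 17.2% of genes, and 1 of 8, *Fabp4*, in KPC mice against 10.8%. For *Adipoq*, *Plin1*, *Cidec*, and *Cfd* the intervals of the fold reached from 0.54 to 2.33 in controls and from 0.53 to 2.17 in KPC mice.

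The deleted gene itself barely separated the genotypes. *Foxp1* was 0.63 ± 0.14 FPKM in WT controls, 0.63 ± 0.10 in WT KPC, 0.58 ± 0.07 in FoxP1SkmKO controls, and 0.54 ± 0.07 in FoxP1SkmKO KPC mice (SD, n = 12 each), and the ranges overlapped. The log2 fold change with genotype was -0.11 in controls (SE 0.07, adjusted p = 0.459) and -0.20 in KPC mice (SE 0.07, adjusted p = 0.246, edgeR's quasi-likelihood test). Whether reads from cells without Cre or from exons outside the deleted part contribute to this count was not tested. The count did not bear out the genotype labels, which are used here as given.

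Among the edgeR tests of the members, the smallest adjusted p were those of *Fabp4* over time of day in the controls of both genotypes. In WT control mice the 2 mice had 19.1 and 18.1 FPKM at CT18, 21.8 and 24.1 at CT22, 31.2 and 28.9 at CT26, 25.3 and 27.0 at CT30, 20.8 and 22.6 at CT34, and 20.3 and 24.1 at CT38. Both mice at CT26 were above all mice at other times. In FoxP1SkmKO controls the values were 16.6 and 17.4 at CT18, 21.6 and 23.3 at CT22, 21.6 and 23.4 at CT26, 27.4 and 27.5 at CT30, 24.8 and 21.5 at CT34, and 19.2 and 20.1 at CT38. Here CT30 was the highest time and CT18 the lowest, with no overlap with other times at either end. The highest mean time was 1.62-fold above the lowest in both.

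*Fabp4* varied with time in WT controls (adjusted p = 0.00224) and in FoxP1SkmKO controls (adjusted p = 0.00886, both by edgeR's quasi-likelihood test over 5 degrees of freedom). It was 1 of 8 members in each, against 18.7% and 6.4% of genes tested. A count of 1 does not set the members as a group apart from other genes. The call in WT controls was lost without replicate 1 at CT26 (adjusted p = 0.0524), and that in FoxP1SkmKO controls without replicate 1 or 2 at CT18 (0.0739 and 0.0585). A sinusoid with a 24 h period was then fitted to the FPKM values of each gene in the 12 mice. In WT controls it had an amplitude of 4.49 around a mean of 23.6 FPKM with a peak at CT27.6 (n = 12, F test p = 0.00521, adjusted over genes 0.157). In FoxP1SkmKO controls it had an amplitude of 4.15 around 22.0 FPKM with a peak at CT29.4 (n = 12, p = 0.0014, adjusted 0.113). By the unadjusted threshold of 0.01 *Fabp4* was the 1 of 8 members called rhythmic in each, against 4.92% and 4.07% of genes with FPKM values. In WT controls that call was lost when any 1 of 6 mice was left out, with p then at most 0.0175.

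With KPC the values were flatter. WT KPC mice had 20.6 and 18.2 FPKM at CT18, 21.9 and 19.4 at CT22, 21.0 and 22.5 at CT26, 19.6 and 23.8 at CT30, 23.9 and 22.2 at CT34, and 21.0 and 20.5 at CT38, so that mice of different times overlapped. The highest mean time was 1.19-fold above the lowest, and the test over times gave an adjusted p of 0.655 (edgeR's quasi-likelihood test). The sinusoid had an amplitude of 1.39 FPKM (n = 12, F test p = 0.144). FoxP1SkmKO KPC mice had 14.5 and 16.7 FPKM at CT18, 22.2 and 19.6 at CT22, 21.2 and 15.1 at CT26, 24.3 and 17.9 at CT30, 21.5 and 19.7 at CT34, and 20.0 and 23.3 at CT38. Their highest mean was 1.39-fold above the lowest, with an adjusted p of 0.0827 over times (edgeR's quasi-likelihood test), and the sinusoid had an amplitude of 1.52 FPKM (n = 12, F test p = 0.535). The 2 mice at CT26 and at CT30 were far apart in this group, and leaving out replicate 1 at CT26 or replicate 2 at CT30 brought the adjusted p over times to 0.017 and 0.0304. It was also under the threshold with the endothelial marker level as a covariate (0.0469) and with no filter on low counts (0.000641).

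These separate tests do not compare the courses of KPC and control mice. The test of the difference itself, KPC against control over the 6 times, gave an unadjusted p of 0.0408 and an adjusted p of 0.378 for *Fabp4* in WT mice, and 0.119 and 0.633 in FoxP1SkmKO mice (edgeR's quasi-likelihood test). With no filter on low counts the adjusted p was 0.0413 in WT mice, under the threshold, and 0.202 in FoxP1SkmKO mice. Of the 8 members 0 passed in WT mice, against 0.883% of genes, and 0 in FoxP1SkmKO mice, against 0% (0 genes). The lowest unadjusted p in FoxP1SkmKO mice was that of *Pparg*, at 0.0528.

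**Figure D5:**
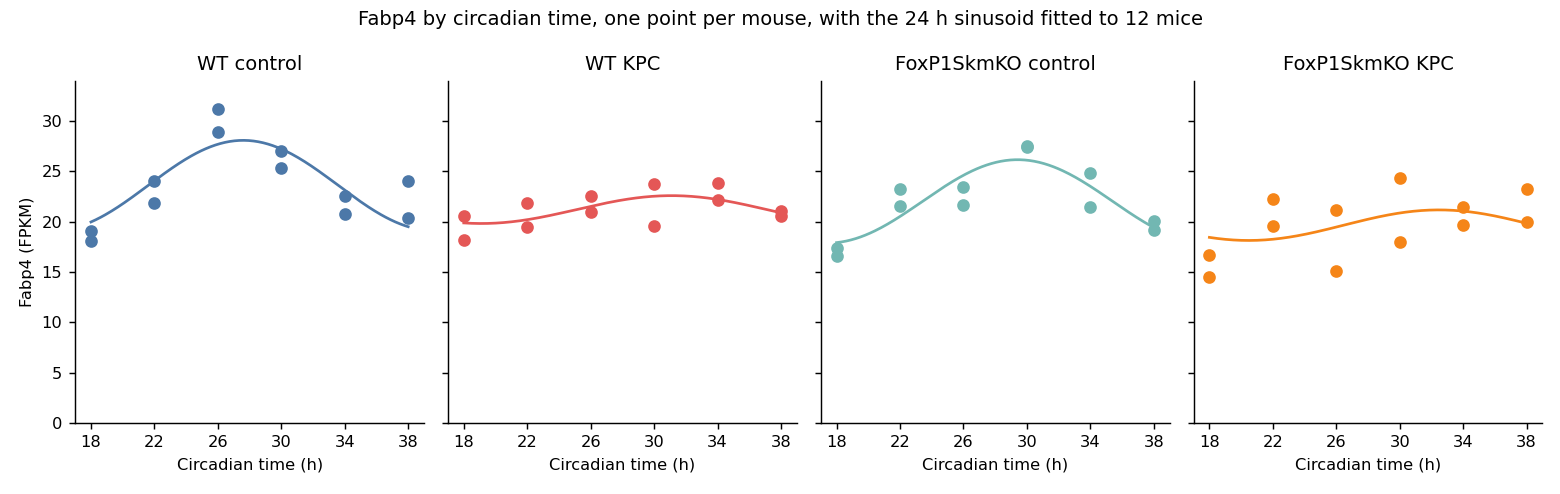
*Fabp4* in FPKM (axis from 0) against circadian time for each of 12 mice in the 4 combinations of genotype and condition, with the fitted 24 h sinusoid. The curve rises to its peak at CT27.6 in WT controls and CT29.4 in FoxP1SkmKO controls, with amplitudes of 4.49 and 4.15 FPKM, and is nearly flat in KPC mice (1.39 and 1.52 FPKM).

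At single times, 1 of the 12 KPC effects on *Fabp4* passed the threshold. At CT26 in WT mice, where controls had 31.2 and 28.9 FPKM and KPC mice 21.0 and 22.5, the groups did not overlap and the log2 fold change was -0.47 (SE 0.13, adjusted p = 0.0214, edgeR's quasi-likelihood test). It was 1 of 8 members, against 7.18% of genes at that time. Over the 11 other combinations of genotype and time, 0.00872% of tests passed and 0 were of members. WT mice at CT26 were therefore unlike the other times for the whole table, with 1122 genes called. The 2 controls at CT26 are the same mice that held the highest *Fabp4* values over time in WT controls. This call and the time-of-day call in WT controls are thus not independent. The *Fabp4* call was lost without replicate 1 of the controls (adjusted p = 0.272) and without replicate 1 or 2 of the KPC mice (0.144 and 0.0585), and it held without replicate 2 of the controls.

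The same contrast in FoxP1SkmKO mice at CT26 was 21.6 and 23.4 FPKM in controls and 21.2 and 15.1 with KPC, a log2 fold change of -0.32 (adjusted p = 0.473), and at CT30 it was 27.4 and 27.5 against 24.3 and 17.9, a log2 fold change of -0.37 (adjusted p = 0.376, both by edgeR's quasi-likelihood test). Both KPC mice were below both controls at each of these times. The same was true of WT mice at CT30 (25.3 and 27.0 FPKM against 19.6 and 23.8), where the log2 fold change was -0.27 (adjusted p = 0.943 by the same edgeR test). Apart from these and WT mice at CT26, KPC and control mice overlapped at every time in both genotypes. The KPC mean was the higher one in WT mice at CT18 and CT34 and in FoxP1SkmKO mice at CT38. The share of all genes that separate 2 mice from 2 in this way is not given here. No difference of the KPC effect between genotypes at a single time passed for any member, against 0.0586% of all tests over the 6 times. Endothelial markers summed to medians of 60.7 and 58.1 FPKM in WT control and KPC mice and 60.5 and 56.7 in FoxP1SkmKO mice. With their level as a covariate the *Fabp4* effect at CT26 in WT mice was -0.54 (adjusted p = 0.0069), and the averaged effects were -0.14 in WT and -0.11 in FoxP1SkmKO mice (adjusted p = 0.151 and 0.485).

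Among the other 7 members, time of day gave no call. The lowest was *Cidec* in WT KPC mice (adjusted p = 0.0961, edgeR's quasi-likelihood test), where 0 of 8 members passed against 10.9% of genes, and in FoxP1SkmKO KPC mice 0 of 8 passed against 5.88%. By the sinusoid 0 of 8 members were rhythmic in WT KPC and in FoxP1SkmKO KPC mice, against 4.22% and 2.63% of genes. In WT KPC mice the mean of *Adipoq* was highest at CT18 (2.96 FPKM, from 2.08 and 3.85 in the 2 mice) and lowest at CT26 (0.27 FPKM, from 0.049 and 0.50), a 10.9-fold range with an adjusted p of 0.136 over times (edgeR's quasi-likelihood test). *Cfd* had its highest and lowest means at the same times, a 9.17-fold range down to 1.63 FPKM, and *Cidec* also, at 2.27 and 0.13 FPKM. In WT controls *Adipoq* was also highest at CT18, from 0.23 and 3.21 FPKM in the 2 mice, with a mean 2.42-fold above its lowest. In FoxP1SkmKO mice its highest mean was at CT30 in controls and at CT38 with KPC.

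Other genes of adipocyte biology were examined as 7 lists with 68 genes, of which 62 passed the filter on low counts. With KPC, 3 of 62 (4.84%) were called in WT mice and 3 of 62 in FoxP1SkmKO mice, against 1.78% and 0.422% of all genes. *Aqp7*, the channel through which glycerol leaves adipocytes and which muscle also expresses, was lower in both. It was 3.15, 5.54, and 7.90 FPKM in WT controls and 2.45, 4.57, and 6.52 with KPC (log2 fold change -0.38, SE 0.08, adjusted p = 0.0137), and 3.94, 5.71, and 7.19 in FoxP1SkmKO controls and 2.66, 4.16, and 5.25 with KPC (-0.40, SE 0.08, adjusted p = 0.0179, both by edgeR's quasi-likelihood test). The groups overlapped in both genotypes. The call held without any 1 mouse in WT and was lost without any 1 of 4 mice in FoxP1SkmKO mice.

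In the list of 11 lipid droplet and lipolysis genes, *Lipe*, which encodes hormone-sensitive lipase, rose in WT mice from 3.07 ± 0.43 to 3.78 ± 0.65 FPKM (SD, n = 12 each) at a log2 fold change of 0.30 (SE 0.07, adjusted p = 0.0278, edgeR's quasi-likelihood test). In FoxP1SkmKO mice 0 of the 11 passed. Of 9 adipogenic regulators, *Klf15*, a factor that responds to glucocorticoids and fasting, rose in WT mice from 12.8 ± 2.0 to 16.1 ± 3.6 FPKM (log2 fold change 0.32, SE 0.07, adjusted p = 0.019 by the same test). In FoxP1SkmKO mice *Itih5*, of 10 genes for secreted proteins, fell from 2.06 ± 0.57 to 1.33 ± 0.39 FPKM (log2 fold change -0.65, SE 0.13, adjusted p = 0.0165) and *Scd2*, of 15 lipid synthesis genes, from 4.94 ± 1.11 to 3.75 ± 1.12 (-0.41, SE 0.09, adjusted p = 0.0378, both by edgeR's quasi-likelihood test). With 1 of the 48 mice left out in turn, the call of *Lipe* was lost in 10 runs, of *Klf15* in 5, of *Itih5* in 5, and of *Scd2* in 13. That these calls were made in one genotype and not in the other is not a tested difference, since 0 of 62 genes differed in their KPC effect between genotypes.

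Of 8 genes for fatty acid uptake and glycerol and 4 tested brown or beige fat genes, 0 passed with KPC in either genotype, and of a separate list of 5 receptors for adipocyte hormones 0 passed as well. Over all genes the shares were 1.78% in WT and 0.422% in FoxP1SkmKO mice. The adiponectin receptors were far more abundant than the hormone, *Adipor1* at 67.7 ± 4.7 and *Adipor2* at 27.7 ± 1.5 FPKM in WT controls, and *Adipor1* was 68.3 ± 2.5 in WT KPC mice (SD, n = 12 each). With genotype, 0 of the 62 genes passed in control mice, against 3.45% of all genes, and 0 in KPC mice, against 0.352%, so that a count of 0 is near the share over all genes.

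Over the day, 9 of these 62 genes were called in WT controls (14.5%, against 18.7% of all genes tested), 12 in WT KPC mice (19.4%, against 10.9%), 8 in FoxP1SkmKO controls (12.9%, against 6.4%), and 9 in FoxP1SkmKO KPC mice (14.5%, against 5.88%). The share was thus below that of all genes in WT controls and above it in the other 3 groups, a difference that was not tested. *G0s2*, an inhibitor of adipose triglyceride lipase, was called in all 4 (adjusted p from 0.000196 to 0.0252, edgeR's quasi-likelihood test). In WT controls its mean was 46.5 FPKM at CT38 and 7.36 at CT30, a 6.32-fold range, and in WT KPC mice 42.6 at CT38 and 10.7 at CT30. *Gpam*, the first enzyme of triglyceride synthesis, was also called in all 4, with its highest mean at CT34 in 3 of them, 56.1 FPKM in WT controls. So were *Cebpb* and *Srebf1*, a pair of adipogenic transcription factors that fibers also express.

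Other cell types were read from marker lists in the same libraries. With KPC in WT mice, the endothelial list had *Vwf* higher (3.32 ± 0.37 and 4.28 ± 0.61 FPKM, log2 fold change 0.36, adjusted p = 0.00246) and *Kdr* lower (9.15 ± 1.82 and 7.70 ± 2.14, -0.27, adjusted p = 0.0417). *Ly6a*, 1 of 6 markers of fibro-adipogenic progenitors, the cells from which muscle fat arises, was higher (18.7 ± 2.7 and 25.6 ± 5.5 FPKM, 0.45, adjusted p = 0.0142), and the tendon marker *Tnmd* was lower (medians 1.30 and 0.42 FPKM, -1.42, adjusted p = 0.0353, all by edgeR's quasi-likelihood test, values with SD over 12 mice each). The summed level of the 6 progenitor markers had a median of 47.0 FPKM in WT controls and 44.4 in WT KPC mice. The rise of *Ly6a* was thus not one of the list as a whole. In FoxP1SkmKO mice 0 of the 6 endothelial, 6 progenitor, and 4 tendon markers passed, against 0.422% of all genes. With genotype in control mice, *Tnnt3* was the 1 of 7 fiber markers called (-0.14, adjusted p = 0.0339, edgeR's quasi-likelihood test), against 3.45% of all genes. Leaving out 1 mouse in turn lost the calls of *Kdr* and *Tnmd* in 17 of 48 runs each, of *Tnnt3* in 14, of *Ly6a* in 2, and of *Vwf* in 0. Macrophage, nerve, and erythroid markers had 0 calls with KPC in either genotype, against 1.78% of all genes in WT and 0.422% in FoxP1SkmKO mice. For lists this short a count of 0 is near those shares. Without each of the 2 libraries with liver transcripts in turn, the averaged *Fabp4* effect in FoxP1SkmKO mice was -0.18 and -0.17 and stayed above the threshold (adjusted p = 0.152 and 0.154), and *Fabp4* still varied with time in FoxP1SkmKO controls without the one at CT22 (adjusted p = 0.0125, edgeR's quasi-likelihood test). The part that other cell types play in the members' levels was not tested beyond the values given.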

How the data were processed

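RNA of tibialis anterior was poly-T selected and sequenced. The authors deposited 12 tables of raw read counts, each with 4 libraries, and a table of FPKM values computed by the authors for all 48. Per the labels, reads were processed with HISAT2 2.0.5 and DESeq2 1.20.0 on mm39, whereas the study's methods name STAR and HTSeq, and the strand setting is not given in the sources used here. The count tables omit genes with under 2 reads over their 4 libraries, and these were set to 0. The tables also hold 96 columns of normalized values per sample and the authors' own fold changes and p-values, none of which were used.

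Counts were filtered with filterByExpr over the 24 groups, scaled by TMM, and tested with edgeR's quasi-likelihood test (edgeR 4.0.16, R 4.3.3) with 1 coefficient per group. Contrasts were averaged over the 6 times, and p was adjusted by Benjamini-Hochberg over 15637 genes at 0.05. FPKM values gave levels and a 24 h sinusoid (F test, unadjusted p under 0.01). Ratios used log2 of counts plus 0.5 and an exact permutation test within times. The scripts were tested on simulated data. The genes named were the 8 members, *Foxp1*, up to 4 genes a list (those called with the smallest adjusted p or, with none called, those of highest mean FPKM), and the 10 most like *Adipoq*, *Plin1*, and *Cidec*. Markers named for being at or near 0, *Alb*, and the genes of the endothelial sum fall outside this rule and were chosen after their values were seen or as parts of that sum. The members and lists were chosen with earlier results of these data known.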

Additional observations from a re-analysis of the deposited data

How the results depend on the processing

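Over all alternatives run, 0 of 8 members were called in the averaged comparisons, except with no filter on low counts. Then 2 were called for KPC in WT mice (*Fabp4* and *Retn*, the latter at -0.86 on the log2 scale with adjusted p = 0.046, edgeR's quasi-likelihood test), 1 for KPC in FoxP1SkmKO mice, 7 instead of 1 over the 12 single-time comparisons, and 21 instead of 2 over the 4 time-of-day tests. The *Fabp4* time course then also differed between KPC and control WT mice (adjusted p = 0.0413, edgeR), where the other 5 alternatives gave 0.244 to 0.403. The share of all genes called without the filter is not given here. These counts are therefore not a result about the members, and the cause of the added calls was not tested. Leaving out 1 mouse in turn gave 0 to 0 members called in each averaged comparison, 0 to 2 at single times, 1 to 3 by time of day, 1 to 2 by the 24 h sinusoid, and 0 to 0 in the ratios to *Adipoq*. The difference in the *Fabp4* effect between genotypes, 0.017, turned to -0.031 with the endothelial covariate, -0.013 without CT18, and -0.033 without CT34, and ranged from -0.023 to 0.059 with 1 mouse left out. The *Adipoq* effect in WT mice turned to 0.081 and 0.096 by limma on log2(FPKM + 1) and log2(FPKM + 0.1), 0.215 without CT26, and 0.065 in the exact permutation test, and ranged from -0.449 to 0.434 with 1 mouse left out. In FoxP1SkmKO mice it turned to 0.052 without CT18 and 0.036 without CT26, and ranged from -0.426 to 0.165. That of *Retn* in WT mice ranged from -1.11 to 0.177. *Fabp4* ranged from -0.167 to -0.121 in WT and -0.202 to -0.120 in FoxP1SkmKO mice. Replicate numbers are shared by all groups but do not pair the mice. The deviations of same-numbered KPC and control mice correlated at -0.10 to 0.12 over 12 pairs of groups, with 1 over 0.1. With the replicate number as a block, 0 members were called in the averaged comparisons, 1 at single times (*Fabp4* at CT26 in WT mice, -0.47), and 2 by time of day, so that no call changed. Depth limits *Lep* and *Retn*, with medians of 8 and 9 counts.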
